A study of Mus musculus with 4 samples.

Results

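The transcripts described here came from 102 predicted loci, genes known by a provisional Gm number or a RIKEN clone name, whose level was low in non-growing mouse oocytes and at least 8 times higher in fully grown ones. They were chosen from 6138 predicted loci among the 25587 listed genes. A locus was taken if its name was Gm followed by digits or ended in Rik, if its level in fully grown oocytes was at least 0.5 RPKM (a read density: reads divided by exon length and by library size), and if that level was at least 8 times the one in non-growing oocytes, loci at 0 there included. Loci in 2 gene-cluster regions, on chromosomes 2 and 4, were left out, which removed 4 of 106. Limits of this kind were met by 1.51 % of all listed genes and by 3.47 % of listed genes with an FGO level of at least 0.5. The 102 members comprised 78 Gm and 24 Rik names. The NGO and FGO values thus made the list and are given as description only, while GO1 and GO2 played no part in it.

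A mouse oocyte enlarges many-fold within its follicle while it transcribes and stores RNA for maturation and for the embryo, and it stops transcribing once fully grown. Growing oocytes are known for activity at promoters that are silent in most tissues, among them promoters derived from retrotransposons, and for large families of recently duplicated genes. Much of that output falls on loci that were annotated from complementary DNA clones or gene prediction alone and have received no functional name.

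RNA-Seq was performed on wild-type mice of the C57BL/6 background (C57BL/6Babr), with oocytes taken from animals of 5 to 20 days of age, and each of 4 stages gave 1 library of pooled oocytes: non-growing (NGOs), growing (GO1 and GO2, the second from older animals than the first) and fully grown germinal-vesicle oocytes (FGOs). Total RNA was depleted of ribosomal RNA. A dUTP strand-marking protocol served for NGOs and FGOs, and ScriptSeq reagents for GO1 and GO2, so the step from NGOs to GO1 and the step from GO2 to FGOs each also cross a change of kit, and stage and kit cannot be told apart there. GO1 and GO2 share the kit. With 1 library per stage there was no replicate and no test between stages, and intervals below are 95 % intervals for counting error only. They take recovered counts as independent and are probably too narrow, since a read pair seems to have been counted more than once.

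The recovered counts on genes, obtained from RPKM as whole numbers, ranged from 63635840 in NGOs to 140249953 in GO2. The libraries carried oocyte markers at high levels, the 8 listed ones summing to between 2113 RPKM in GO1 and 3394 RPKM in NGOs. Of 9 granulosa cell markers, the sum was 2.47 (NGO), 1.76 (GO1), 3.84 (GO2) and 9.45 RPKM (FGO), with Foxl2 at 0.0754, 0.00313, 0.0115 and 0.0265 RPKM and Cyp19a1 supplying 6.08 of the FGO sum. The 7 stroma and theca markers summed to 5.63 RPKM in NGOs and to at most 0.284 in the other libraries, and 3 listed blood markers to between 0.342 and 1.55. Of these lists, 1 of 9 granulosa markers (Cyp19a1) was at least 2-fold higher in GO2 than in GO1, and so moved in the direction of the members. What part such cells had in the members' levels was not tested. In bulk libraries a change in the number of cells of a type and a change in RNA per cell cannot be told apart.

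The members were mostly weak transcripts with a few strong ones. In FGOs 70 members stood at 1 RPKM or more, 21 at 5 or more and 10 at 10 or more. Their summed level in FGOs was 424 RPKM, of which the 3 highest gave 27.9 % and the 10 highest 55.1 %. All members had at least 21 recovered counts in FGOs, with a median of 227 counts and a maximum of 14221. In NGOs 19 members had fewer than 3 counts, and 10 of them none. Median RPKM climbed from 0.0817 (NGO) through 0.398 (GO1) and 0.832 (GO2) to 1.57 (FGO). By position in GENCODE and RefSeq, 56 members were non-coding RNAs, 35 were protein-coding genes, 8 were pseudogenes and 3 could not be matched, because the listed name and the listed position pointed to different genes. The RefSeq type was used where there was one. GENCODE lists the pseudogenes Gm4985, Gm5286, Gm7271 and G630090E17Rik and the non-coding Gm5941 as protein coding. A further member, Gm2042, was matched by position to a gene of another name. Of the 102, 24 carry a RefSeq symbol other than a Gm or Rik name in the table used here, pseudogenes and antisense RNAs included.

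**Figure D1:**
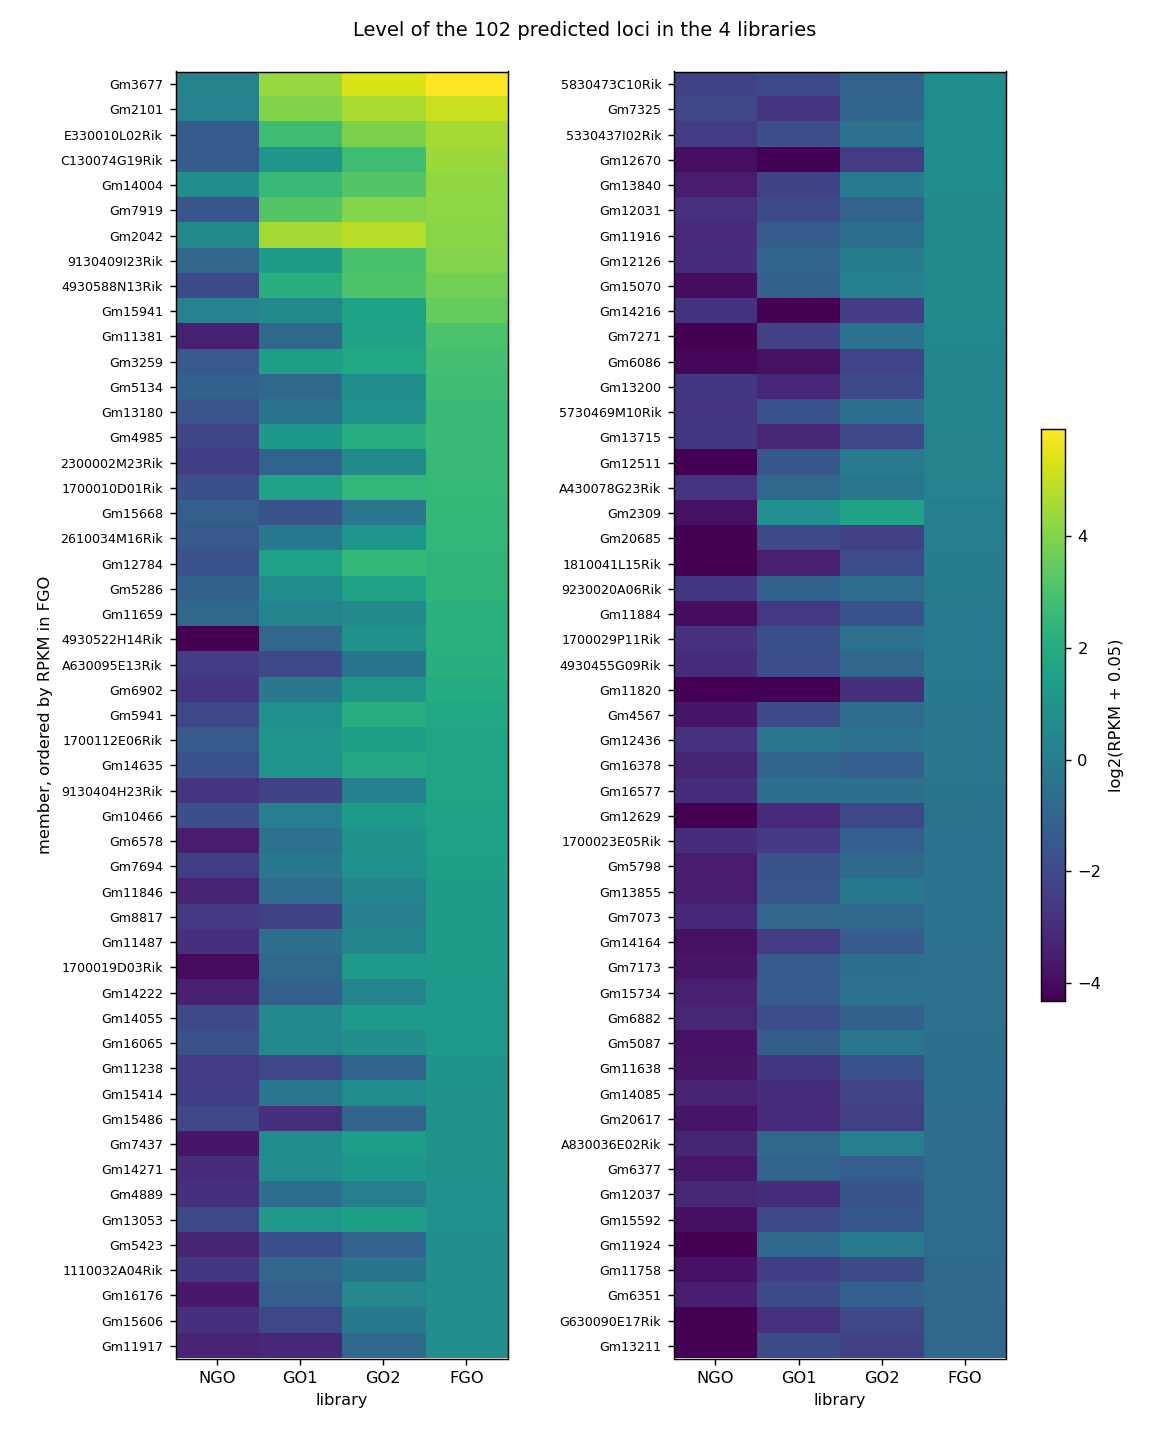
Level of each of the 102 members (rows, from the highest to the lowest RPKM in FGO) in the 4 libraries (columns), as log2(RPKM + 0.05). The level is higher at each later stage in 76 rows, and Gm2042 (left block) and Gm2309 (right block) are brighter in GO2 than in FGO.

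The 3 most abundant members were non-coding RNAs of a repeated family on the X chromosome. Gm3677, listed at chrX:30037837-30087879 (GRCm38, plus strand) and overlying the GENCODE gene E330016L19Rik, was at 1.14 (NGO), 20.1 (GO1), 41.0 (GO2) and 60.7 RPKM (FGO). The levels of Gm2101 (chrX:27658161-27692894) were 1.11, 15.9, 24.5 and 34.4 RPKM in the same order. E330010L02Rik (chrX:25917944-25954696, minus strand) was at 0.346, 6.6, 14.8 and 23.3 RPKM. All 3 were higher at each later stage, and the GO2 to GO1 ratios were 2.04 (1.98 to 2.10), 1.54 (1.49 to 1.59) and 2.24 (2.07 to 2.42).

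Another non-coding RNA among the strongest, Gm14004 (chr2:125124356-125134327), was at 1.59, 5.99, 9.14 and 18.4 RPKM, with a GO2 to GO1 ratio of 1.53 (1.37 to 1.70).

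Other copies of the X family followed another course. Gm2309 was at 0.0186 (NGO), 1.70 (GO1), 2.97 (GO2) and 1.03 RPKM (FGO), and Gm7437 at 0.0274, 1.52, 2.60 and 1.82 RPKM. These members peaked in GO2, with GO2 at 288 % and 143 % of the FGO level. Gm2309 is 99.8 % identical over 1941 bases to the transcript at Gm3677, so reads of the family cannot be assigned with certainty. By the study's methods the mapping reported 1 alignment per read, so a read that matches several copies equally was placed at a single copy. Another 7 family loci did not reach the FGO limit of 0.5 RPKM. They lay between 0.116 RPKM (Gm14974) and 0.351 RPKM (Gm14553) in FGOs, and 6 of them had their highest level in GO1 or GO2 at between 0.365 and 0.536 RPKM, while Gm14974 peaked in GO2 at 0.210 RPKM.

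Another X-linked pair, Gm5941 and 1700010D01Rik, consists of loci that are non-coding in RefSeq. They lie on opposite strands, and their transcripts are 97.6 % identical over 507 bases. Gm5941 (chrX:92489949-92490681) was at 0.178 (NGO), 1.70 (GO1), 4.16 (GO2) and 3.52 RPKM (FGO). 1700010D01Rik (chrX:95732590-95733261) was at 0.236, 2.97, 5.53 and 5.75 RPKM. GO2 stood at 118 % and 96.2 % of FGO. Their RefSeq promoters (GRCm38.p6, 250 bases before to 50 after the start) are shown because both members hold the same stretch of 67 bases, in capitals. It begins at position 220 of the 300 bases in Gm5941 (chrX:92489699-92489998, plus strand) and at position 167 in 1700010D01Rik (chrX:95733216-95733515, minus strand).
Gm5941: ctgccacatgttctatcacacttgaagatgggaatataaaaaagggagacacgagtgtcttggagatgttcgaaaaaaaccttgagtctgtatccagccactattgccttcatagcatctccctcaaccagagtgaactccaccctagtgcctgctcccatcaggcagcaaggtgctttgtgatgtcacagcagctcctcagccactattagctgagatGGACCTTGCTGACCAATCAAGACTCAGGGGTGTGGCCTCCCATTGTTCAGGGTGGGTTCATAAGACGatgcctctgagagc
1700010D01Rik: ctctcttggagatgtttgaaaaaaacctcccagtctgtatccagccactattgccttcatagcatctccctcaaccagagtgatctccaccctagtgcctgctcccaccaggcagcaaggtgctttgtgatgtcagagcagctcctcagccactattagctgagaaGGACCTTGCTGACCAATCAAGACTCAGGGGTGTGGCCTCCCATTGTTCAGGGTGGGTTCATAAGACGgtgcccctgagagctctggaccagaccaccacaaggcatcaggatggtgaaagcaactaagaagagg

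Protein-coding members had varied roles, and some carry no functional symbol. The highest was C130074G19Rik (chr1:184871926-184883218), at 0.349, 2.13, 6.6 and 20.9 RPKM from NGOs to FGOs, followed in FGOs by the locus of Pramel51 (17.2 RPKM there) and by 9130409I23Rik (chr1:181051237-181060667), at 0.476, 2.41, 7.86 and 16.1 RPKM. The GO2 to GO1 ratios of C130074G19Rik and 9130409I23Rik were 3.11 (2.88 to 3.35) and 3.27 (2.99 to 3.57). The protein-coding locus 4930522H14Rik (chr4:109505337-109531297) had the largest log2 difference of FGO over NGO on RPKM + 0.05, at 6.5. It was listed at 0 in NGOs and stood at 0.475, 1.88 and 4.46 RPKM in GO1, GO2 and FGOs, at least 158-fold higher in FGOs than 3 NGO counts would give. Its GO2 to GO1 ratio was 3.95 (2.997 to 5.287). 2300002M23Rik (chr17:35567450-35568952), also protein coding, was at 0.138, 0.441, 1.42 and 5.92 RPKM, with a GO2 to GO1 ratio of 3.23 (2.56 to 4.11). 4930588N13Rik, now Tex26, a gene named for expression in testis, was at 0.198, 4.25, 8.54 and 13.7 RPKM. 2610034M16Rik, now Pdzph1, was at 0.318, 0.832, 2.03 and 5.40 RPKM.

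Enzymes and a transporter were among the products. 1110032A04Rik, now Sptssb, a small subunit of the serine palmitoyltransferase that begins sphingolipid synthesis, was at 0.106, 0.468, 0.733 and 1.63 RPKM. 5330437I02Rik, now Oacyl, a putative acyltransferase, was at 0.128, 0.215, 0.652 and 1.54 RPKM. Gm6086, now Gal3st2c, of a family that adds sulfate to galactose, was at 0.00445, 0.0194, 0.156 and 1.26 RPKM. In Gal3st2c GO2 was at 12.4 % of FGO, and the FGO to NGO ratio of 282 rests on 2 NGO counts (interval 77.7 to 2334). Gm14085, now Slc28a2b, a copy of the nucleoside transporter gene Slc28a2, was at 0.0489, 0.0774, 0.163 and 0.617 RPKM. Slc28a2 itself was at 0.0709, 0.0600, 0.173 and 0.999 RPKM, and the copies are 95.9 % identical, so their reads may be shared.

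Signalling and membrane proteins formed another group. 1700019D03Rik, which encodes a small membrane anchor of protein kinase A, was at 0.0113, 0.491, 2.21 and 2.32 RPKM. It had nearly reached the FGO level in GO2 (95.4 %), and its GO2 to GO1 ratio was 4.51 (3.96 to 5.17). 9130404H23Rik, now Themis3, a relative of a thymocyte selection factor, was at 0.101, 0.154, 1.09 and 3.14 RPKM. Its GO2 to GO1 ratio was 7.08 (5.02 to 10.3), and its log2 difference of 2.48 on RPKM + 0.05 was the largest of all 102 members. 1810041L15Rik, now Shisal1, was listed at 0 in NGOs and stood at 0.0440, 0.219 and 0.948 RPKM in GO1, GO2 and FGOs, at least 207-fold higher in FGOs than the limit that 3 NGO counts would set. Gm7325, now Mymx, which encodes the myoblast fusion protein myomerger, was at 0.176, 0.0970, 0.454 and 1.55 RPKM and was, among members with counts in NGOs, the nearest to the fold limit, at 8.81 times NGO.

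Genes named for spermatids, cilia or the male tract were also on the list. 1700023E05Rik, now Thegl, was at 0.0766, 0.113, 0.368 and 0.708 RPKM. Gm7173, now Cfap47, a gene of cilia and flagella, was at 0.0224, 0.345, 0.616 and 0.661 RPKM. A630095E13Rik, now Pate14, was at 0.132, 0.191, 0.751 and 4.42 RPKM. Cfap47 was close to its FGO level in GO2 (93.1 %), while Pate14 was at 17.0 %. Apart from the PRAME-like members, the other protein-coding members with a new symbol were 1700112E06Rik (Lrmda), 5730469M10Rik (Prxl2a), 5830473C10Rik (Albfm1), A430078G23Rik (Arhgef18) and Gm15070 (Trpc5os), with FGO levels between 1.11 and 3.16 RPKM.

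Members of the PRAME-like family, leucine-rich repeat proteins of which Oog1 is an oocyte example, were among the strong loci. The locus listed as Gm2042, at the position of Pramel51 (chr12:88175589-88181894), was at 1.44, 23.4, 28.2 and 17.2 RPKM. This locus peaked in GO2, at 163 % of FGO. Gm3259, now Pramel47, was at 0.313, 2.70, 3.50 and 7.27 RPKM, and Gm6351 at 0.0397, 0.203, 0.397 and 0.534 RPKM. Oog1, which is no member, was at 121, 505, 550 and 706 RPKM, and the Gm2042 transcript is 98.8 % identical to it over 2451 bases. Since Oog1 carried many times the reads of Gm2042 and each read was placed at 1 position, the level of Gm2042 is uncertain. The same holds for Gm3259, whose transcript is 98.8 % identical over 2504 bases to C87414, a gene at 11.03, 112, 153 and 219 RPKM. Gm6351 is 100 % identical to Gm7982 over 1536 bases, so the placement of its reads is uncertain as well. Gm7919, whose listed name and position conflict (listed at chr5:94682645-94685026), was at 0.276, 8.92, 16.1 and 18.0 RPKM.

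On chromosome 4 a family of 10 near-identical listed genes held 3 members. Gm11487 (chr4:73401032-73405072) was at 0.0820, 0.638, 1.20 and 2.44 RPKM, Gm11238 at 0.123, 0.185, 0.451 and 1.92 RPKM, and Gm11758 at 0.0205, 0.137, 0.206 and 0.536 RPKM. All 3 were higher at each later stage. The other 7 genes of the family stayed between 0.00637 RPKM (Gm11756) and 0.0505 RPKM (Gm11237) in FGOs and had no count in NGOs. Gm11758 is 100 % identical to Gm13871 over 1324 bases, and Gm11238 is 99.4 % identical to Gm428 over 1322 bases. Each read was placed at 1 position, so the split of reads between members and other copies is uncertain. Promoters of Gm11487 and Gm11758 share an exact stretch of 58 bases, in capitals, and are printed to show it. Promoters of Gm11756, Gm11757, Gm13871 and Gm428 also have 30 or more exact bases in common with them, and these 4 genes were at 0.0379 RPKM or less in FGOs. Each printed promoter has TATAAA shortly before the start, 34 bases in Gm11487 (chr4:73405023-73405322, minus strand) and 32 bases in Gm11758 (chr4:73876217-73876516, minus strand).
Gm11487: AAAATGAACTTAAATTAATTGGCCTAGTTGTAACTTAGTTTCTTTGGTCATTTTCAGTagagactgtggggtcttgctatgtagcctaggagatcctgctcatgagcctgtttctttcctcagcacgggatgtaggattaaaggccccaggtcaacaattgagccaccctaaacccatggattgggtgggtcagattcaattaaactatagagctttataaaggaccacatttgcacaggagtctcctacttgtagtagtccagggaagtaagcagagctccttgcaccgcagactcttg
Gm11758: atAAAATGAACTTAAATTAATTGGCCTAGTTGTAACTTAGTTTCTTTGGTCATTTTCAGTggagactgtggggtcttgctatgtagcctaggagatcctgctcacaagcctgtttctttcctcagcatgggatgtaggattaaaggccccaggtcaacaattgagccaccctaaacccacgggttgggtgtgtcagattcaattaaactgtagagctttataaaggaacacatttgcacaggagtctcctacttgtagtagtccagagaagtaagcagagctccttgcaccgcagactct

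Several members are copies of genes with known products. Gm6578, a pseudogene copy of Mrpl32 (a mitochondrial ribosomal protein gene; 95 % identity over 760 bases), was at 0.0368, 0.649, 1.86 and 2.86 RPKM, whereas Mrpl32 was at 44.9, 55.6, 65.8 and 43.1 RPKM. Gm5423, now Tmem229b-ps, was at 0.0538, 0.235, 0.411 and 1.68 RPKM, and its source gene Tmem229b at 0.134, 0.155, 0.425 and 1.38 RPKM. The source gene was itself 10.3 times higher in FGOs than in NGOs, and with 98.8 % identity their reads may be shared. Gm16378, a copy of the translation initiation factor gene Eif1 (97.4 % identity), was at 0.0529, 0.461, 0.363 and 0.782 RPKM while Eif1 was at 11.03, 14.4, 13.8 and 7.85 RPKM. Gm5286, now Spopfm3, of a family related to the ubiquitin ligase adaptor Spop, was at 0.403, 1.55, 2.91 and 5.16 RPKM. Copies were searched for the 98 members matched to a GENCODE gene. Of these, 20 had a near-identical copy elsewhere (at least 95 % identity over 200 or more bases and at least 50 % of the transcript). Reads of such copies may be shared. Gm7919, Gm6902, Gm4567 and Gm6086 were not searched and count below as having no copy found. GENCODE genes with the names Gm7919, Gm6902 and Gm4567 were themselves near-identical copies of Gm3259 or Gm6882.

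**Figure D2:**
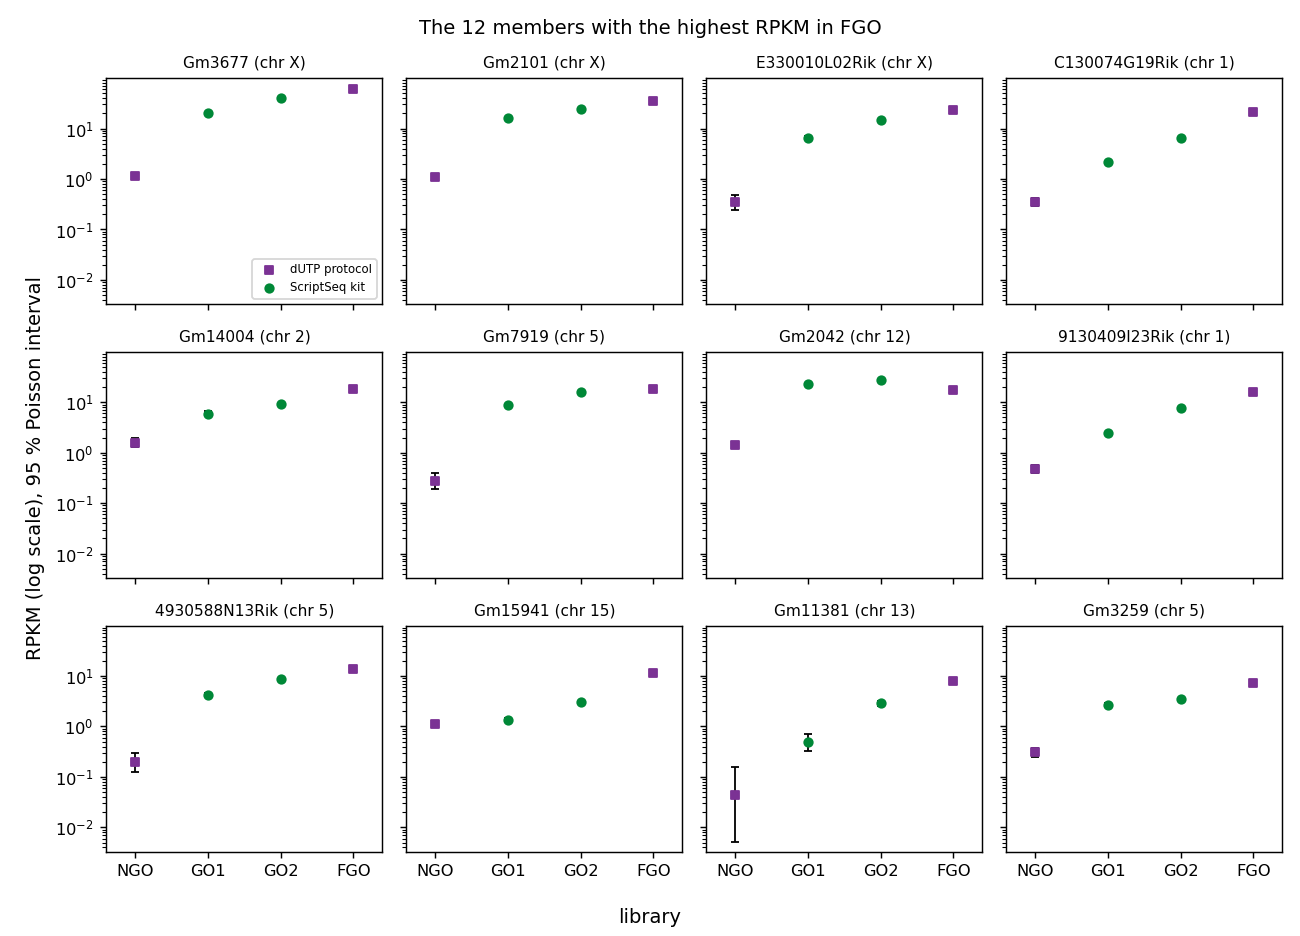
RPKM on a log scale in the 4 libraries for the 12 members with the highest FGO level; bars are 95 % Poisson intervals for counting error, squares are dUTP libraries and circles ScriptSeq libraries. Levels climb from NGO to FGO in 11 panels, and Gm2042 falls from 28.2 RPKM in GO2 to 17.2 in FGO.

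The comparison of GO2 with GO1, which the choice of members did not use and in which the kit was the same, addressed whether these loci gained transcript during growth itself. GO2 was higher than GO1 in 97 of the 102 members, against 44.9 % of all listed genes and 55.1 % of those with FGO of at least 0.5. It was at least 2-fold higher, on RPKM + 0.05, in 47 (46.1 %), against 2.7 % of all listed genes and 3.03 % of listed genes with an FGO level of at least 0.5. No member was 2-fold lower, against 0.809 % of all listed genes and 0.601 % of those with FGO of at least 0.5. At 4-fold the members numbered 6, against 0.254 % and 0.251 %. The median log2 difference was 0.96 in members (quartiles 0.70 and 1.40), 0.06 in the 1100 other predicted loci with FGO of at least 0.5 and 0.00 in all listed genes. A larger pseudocount of 0.5, which is above the GO1 level of most members, left 16 members past 2-fold. By counting error alone, the interval of the GO2 to GO1 ratio lay wholly above 1 in 89 members and held 1 in 13, and it lay wholly below 1 in none. Such intervals were not computed for other genes, so no share of all listed genes stands beside these counts.

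Loci with functional names that met the same limits gave like values. Of these 276 genes, 148 (53.6 %) were at least 2-fold higher in GO2, with a median log2 difference of 1.03. Among the other predicted loci with FGO of at least 0.5, 29 of 1100 (2.64 %) were. Within the members, 19 of 35 protein-coding genes, 24 of 56 non-coding RNAs and 2 of 8 pseudogenes passed 2-fold, with median log2 differences of 1.11, 0.96 and 0.80. None of 19 listed oocyte growth genes from a list of 20 (zona pellucida proteins, growth factors and maternal-effect genes) met the limits for members, none was 2-fold higher in GO2 and 1 (Sohlh1) was 2-fold lower.

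**Figure D3:**
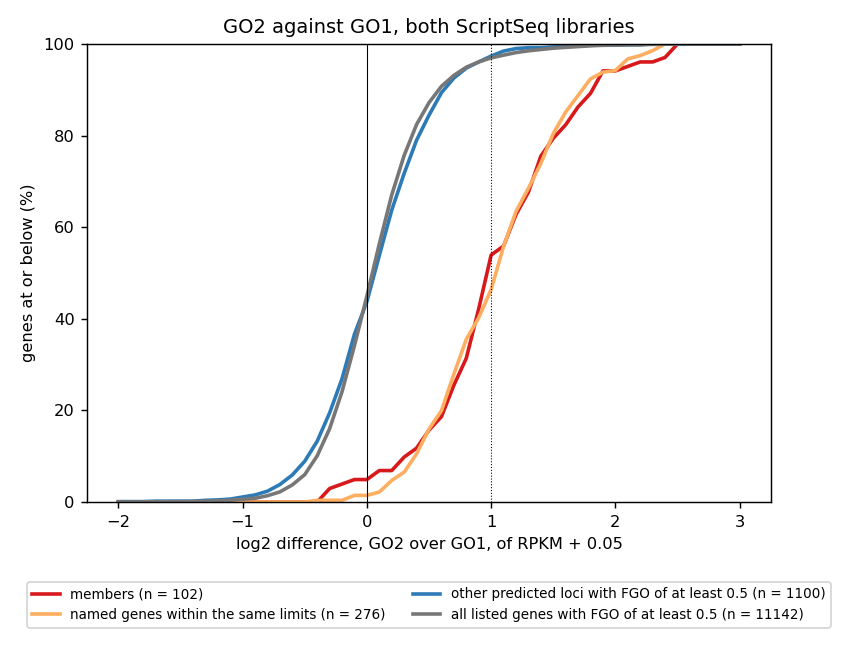
Cumulative percent of genes (vertical axis) at or below each log2 difference of GO2 over GO1 (horizontal axis, RPKM + 0.05) in 4 sets, with the dotted line at 2-fold. The members' curve lies near that of named genes within the same limits and to the right of the other predicted loci, with medians of 0.96, 1.03 and 0.06.

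The largest differences of GO2 over GO1 among members with at least 20 counts in the pair were in Themis3 (above), Gm11381, Gm8817, Gm11917, Gm13840 and 1700019D03Rik. Gm11381, a non-coding locus at chr13:32379907-32383688, was at 0.0431, 0.488, 2.91 and 7.98 RPKM, with a ratio of 5.96 (3.99 to 9.28). Gm8817, non-coding on the X chromosome (chrX:167063194-167070380), was at 0.119, 0.151, 1.04 and 2.44 RPKM and had a ratio of 6.86 (4.13 to 12.2). Gm8817 was low in NGOs and GO1 alike. For Gm11917 (0.0485, 0.0634, 0.533 and 1.57 RPKM) the ratio of 8.40 rests on 3 GO1 counts, with an interval of 2.71 to 42.2. Gm13840 was at 0.0353, 0.154, 0.874 and 1.5 RPKM, with a ratio of 5.67 (2.29 to 18.2).

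At the other end, GO2 was below GO1 in 5 members. Gm13211 was at 0, 0.204, 0.149 and 0.504 RPKM, Gm20685 at 0, 0.194, 0.144 and 1.01 RPKM, and Gm6377 at 0.0291, 0.437, 0.368 and 0.571 RPKM. Gm12436 was at 0.0886, 0.757, 0.668 and 0.814 RPKM, and Gm16378 is given above. The intervals of all 5 ratios held 1, so no fall was detectable at this depth. Gm16577, at 0.0768, 0.620, 0.633 and 0.745 RPKM, had a ratio of 1.02 (0.679 to 1.56).

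Time of appearance varied among members. The level was higher at every step in 76 of 102, and FGO held the highest level in 89 (87.3 %). This share was 22.6 % of all listed genes, 31.5 % of those with FGO of at least 0.5 and 87.0 % of named genes within the same limits. The FGO limit and the fold limit of the rule help to set it. They bear on the 76 as well, a count not made for other genes. GO2 held the highest level in the other 13 members. GO2 stood at a median of 53.0 % of the FGO level (quartiles 30.7 and 76.9 %) and GO1 at 25.6 %. Named genes within the same limits had medians of 56.1 % (GO2) and 26.3 % (GO1). Listed genes with FGO of at least 0.5 had 90.7 % and 87.8 %. The rule chose members by a high FGO level, so it helps to set these percents as well. Under 25 % of FGO in GO2 were 17 members, 30 were between 25 and 50 %, 42 between 50 and 100 %, and 13 at or above 100 %. The FGO interval lay above that of GO2 in 75 members, overlapped it in 20 and lay below it in 7. This last step crosses the change of kit, and these intervals were not compared in other genes.

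The members with the lowest share of their FGO level in GO2 were non-coding. Gm12670 (chr4:91646315-91651152) was at 0.0157, 0, 0.122 and 1.51 RPKM, Gm14216 at 0.0925, 0, 0.133 and 1.36 RPKM, and Gm11820 at 0, 0, 0.0811 and 0.831 RPKM. Each was at under 10 % of its FGO level in GO2. Beside Gm2309 and Gm2042, the loci furthest above FGO in GO2 were A830036E02Rik (0.0539, 0.501, 1.01 and 0.580 RPKM), Gm11924 (0, 0.514, 0.847 and 0.549 RPKM) and Gm13053 (0.197, 2.30, 2.73 and 1.78 RPKM). All 5 of these had GO2 at 153 % of FGO or more. Of the 13 members that peaked in GO2, 12 were non-coding RNAs (Gm5941 by RefSeq but not by GENCODE) and 1 was protein coding.

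The median percent of the FGO level in growing oocytes was higher in the 14 members on the X chromosome than in the 88 on autosomes. This split was made after the values were seen, rests on FGO values that the rule used, and was not tested. The X held 14 members, 13.7 % of them, against 5.46 % of other predicted loci and 3.18 % of those with FGO of at least 0.5. Of the 14, 7 have near-identical copies with which reads may be shared, so they are not independent loci. GO1 stood at a median of 50.04 % of FGO in the 14 X members and 21.9 % in the 88 autosomal members, and GO2 at 74.6 % and 49.0 %. The 7 X members without a near-identical copy had medians of 52.2 % (GO1) and 71.8 % (GO2), and the 7 with copies 48.4 % and 96.2 %. On autosomes the medians in GO2 were 48.9 % with no copy found and 49.0 % with copies. Of the 326 other predicted loci on the X, those detected in FGOs had medians of 73.0 % (GO1) and 97.9 % (GO2). All other predicted loci detected in FGOs had medians of 82.6 % and 93.2 %. Chromosome 4 held the most members, 17 (16.7 %), against 599 of the 5973 other predicted loci, both without the left-out regions.

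**Figure D4:**
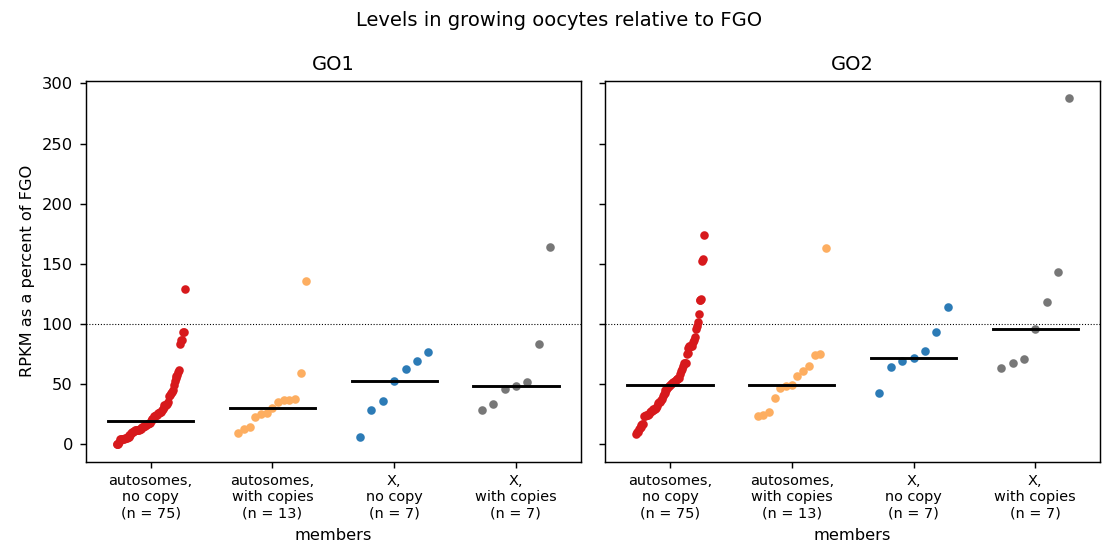
RPKM in GO1 (left) and GO2 (right) as a percent of FGO for each member, split by chromosome and by whether a near-identical copy was found. Points are members, black lines medians and the dotted line 100 %. The GO1 medians are 19.2 % and 30.1 % on autosomes and 52.2 % and 48.4 % on the X.

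Neighbouring and overlapping genes were compared with the members' own levels, because the strand setting of the counting is not given in the sources used here. Of the 102 members, 30 (29.4 %) overlapped another listed gene, 21 of them on the opposite strand, against 44.6 % and 38.5 % of other predicted loci. Among all listed genes the shares were 29.2 % and 25.2 %, and among other predicted loci with FGO of at least 0.5 they were 35.9 % and 28.7 %, so the members' share was near that of all genes. Exon sequence was shared by 13 of the 30. For 24 of these 30 members no overlapping gene met the limits of 8-fold and 0.5 RPKM. Only 1.51 % of all listed genes met such limits, so a partner outside them is the usual case. A partner outside them could still climb: Trpc5, opposite Gm15070, was at 0.0144 RPKM in NGOs and 0.433 RPKM in FGOs. Whether reads of overlapping genes entered the members' levels was not tested. Gm16176, now Igf1os, antisense to the growth factor gene Igf1, was at 0.0312, 0.378, 1.30 and 1.6 RPKM while Igf1 stayed between 0.0104 and 0.0365 RPKM. Gm11659, antisense to Mapt (the microtubule-associated protein tau), was at 0.485, 1.17, 1.38 and 4.54 RPKM while Mapt stayed between 0.0248 and 0.0660 RPKM.

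In the other 6 a partner met them. Sec16b, opposite Gm15486, was at 0.0836, 0.134, 0.525 and 1.97 RPKM, and Gm15486 at 0.178, 0.0836, 0.427 and 1.84 RPKM. Cftr, the chloride channel gene opposite Gm15592, was at 0.0582, 0.317, 0.640 and 0.790 RPKM, and Gm15592 at 0.0159, 0.199, 0.308 and 0.568 RPKM. For Nos1ap and Gm7694, on the same strand, the values were 0.0599, 0.280, 0.582 and 1.07 RPKM and 0.139, 0.805, 1.79 and 2.75 RPKM. Krt12 reached 9.66 RPKM in FGOs beside 0.580 for A830036E02Rik on the other strand. The remaining 2 are Gm20617 and Gm20685, which overlap each other. Gm15941, a strong member at 1.11, 1.36, 3.03 and 11.2 RPKM, shared 48.9 % of its exon bases with exons on the opposite strand and lay within Ncald, which was at 2.41, 4.63, 6.38 and 7.15 RPKM.

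Few members lay side by side. With a distance of 100 kb, 6 members formed 3 pairs: Gm11917 with Gm11916 (0.0696, 0.340, 0.637 and 1.40 RPKM), 4930455G09Rik (0.0718, 0.225, 0.467 and 0.849 RPKM) with Gm13053, and Gm20617 (0.0242, 0.0704, 0.144 and 0.589 RPKM) with Gm20685 on the opposite strand. The pairs did not share 1 course: Gm13053 peaked in GO2 and its neighbour in FGOs.

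A RefSeq promoter with its start within 1 kb of the listed start was found for 40 of the 102 members, 25 protein coding and 15 non-coding, so what follows describes those 40. Few CpGs, an observed over expected ratio under 0.4, were found in 28 (70.0 %, interval 54.6 to 81.9 %), against 55.2 % of 2520 other predicted loci, 49.2 % of 185 named genes within the same limits and 37.1 % of all 16414 listed genes with a promoter. The median ratio was 0.252 in members, 0.347 in other predicted loci and 0.603 in all listed genes. Non-coding members had few CpGs in 13 of 15 and protein-coding ones in 15 of 25. Among promoters with 40 to 55 % G and C, the shares were 82.8 % of 29 members, 76.4 % of other predicted loci and 63.5 % of all listed genes, so base composition moves with this difference. A stretch of 30 bases shared with another promoter was present in 9 of 40 (22.5 %), against 17.1 % of other predicted loci and 9.02 % of all listed genes. It was present in 3 of the 33 (9.09 %) members with no near-identical copy found, among them Gm6086, which was not searched for copies. For a stretch of 20 bases the shares were 22.5 %, 24.1 % and 19.9 %.

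**Figure D5:**
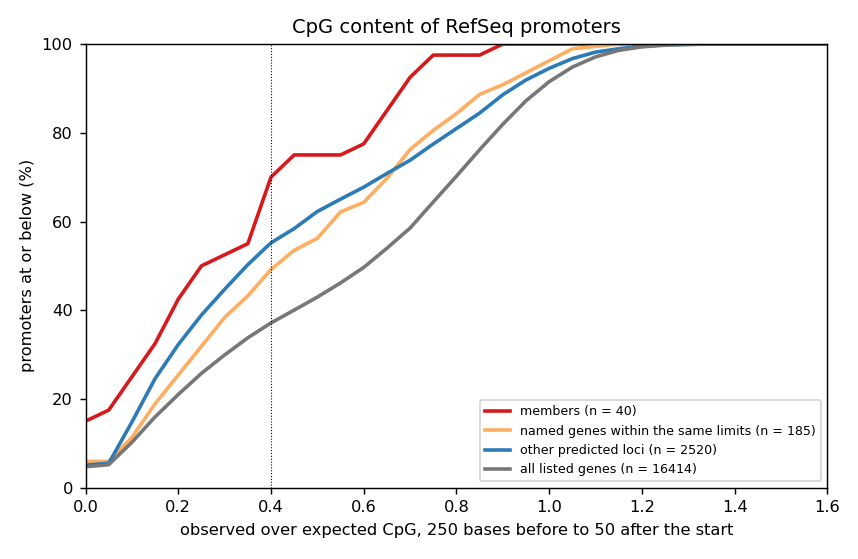
Cumulative percent of RefSeq promoters (vertical axis) at or below each ratio of observed over expected CpG (horizontal axis) in 4 sets, with the dotted line at 0.4. At that line the members' curve stands at 70.0 %, above other predicted loci (55.2 %), named genes within the same limits (49.2 %) and all listed genes (37.1 %).

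The promoters were also searched on both strands for 7 short motifs, among them TAATTG, letters bound by the oocyte homeobox factor NOBOX, and TGATTG, bound by LHX8. TAATTG was found in 10 of 40 member promoters (25 %, interval 14.2 to 40.2 %), against 6.83 % of other predicted loci, 8.11 % of named genes within the same limits and 6.84 % of all listed genes. Within 40 to 55 % G and C the shares were 27.6 % of 29, 8.6 % of other predicted loci and 9.44 % of all listed genes. Of 33 members with no near-identical copy found, 7 carried it. Gm8817 and Gm13715 among these 7 each share 30 or more exact bases with the promoter of Gm11548, so the 7 are not all independent. TGATTG was found in 9 of 40 (22.5 %, interval 12.3 to 37.5 %), against 13.7 % and 14.8 %. Of those 9, 8 were among the 15 non-coding members, a split made after the values were seen. TATAAA between 45 and 15 bases before the start was present in 3 (7.5 %), against 2.54 % of other predicted loci and 2.90 % of all, and 2 of the 3 are the chromosome 4 copies above. CCGCCC was found in 8 of 40 (20.0 %, against 32.8 % and 48.1 %) and CANNTG in 36 (against 74.5 % and 68.7 %). TAATTA, which differs from TAATTG in its last letter alone, was found in 2 of 40 (5 %, interval 1.38 to 16.5 %), against 4.37 % and 4.51 %. Whether NOBOX acts on the member promoters was not tested. CACGTG was found in 3 (against 6.71 % and 8.12 %). These are matches of letters in a window, not binding sites.

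The next promoters show TAATTG, or its reverse complement CAATTA, in capitals, in the most abundant members that carry it outside the chromosome 4 family. In Pdzph1 (2610034M16Rik, chr17:58991326-58991625, minus strand; FGO 5.40 RPKM) it begins 149 bases before the start, in Gm8817 (chrX:167070321-167070620, minus strand; 2.44 RPKM) 108 bases, in Sptssb (1110032A04Rik, chr3:69859845-69860144, minus strand; 1.63 RPKM) 103 bases, and in Albfm1 (5830473C10Rik, chr5:90560959-90561258, plus strand; 1.57 RPKM) 40 bases, followed there by TATAAA 23 bases before the start. In the chromosome 4 promoters printed above, TAATTG lies inside the shared stretch.
2610034M16Rik: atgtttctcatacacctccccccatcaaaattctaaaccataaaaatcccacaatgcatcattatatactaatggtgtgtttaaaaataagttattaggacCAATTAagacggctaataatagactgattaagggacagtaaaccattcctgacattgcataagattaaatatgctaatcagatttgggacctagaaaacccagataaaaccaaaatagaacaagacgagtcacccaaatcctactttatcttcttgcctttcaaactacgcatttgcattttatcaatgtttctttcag
Gm8817: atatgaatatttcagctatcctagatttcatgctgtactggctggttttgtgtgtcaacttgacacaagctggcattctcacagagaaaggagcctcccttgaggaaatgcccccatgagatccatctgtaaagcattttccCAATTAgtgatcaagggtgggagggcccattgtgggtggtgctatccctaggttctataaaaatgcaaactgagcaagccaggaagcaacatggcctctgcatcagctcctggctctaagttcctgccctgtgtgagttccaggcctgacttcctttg
1110032A04Rik: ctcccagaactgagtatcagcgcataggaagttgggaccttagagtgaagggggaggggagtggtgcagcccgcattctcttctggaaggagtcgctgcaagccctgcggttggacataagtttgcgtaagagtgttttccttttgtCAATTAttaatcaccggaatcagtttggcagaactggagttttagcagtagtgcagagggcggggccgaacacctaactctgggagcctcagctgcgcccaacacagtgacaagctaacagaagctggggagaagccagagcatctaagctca
5830473C10Rik: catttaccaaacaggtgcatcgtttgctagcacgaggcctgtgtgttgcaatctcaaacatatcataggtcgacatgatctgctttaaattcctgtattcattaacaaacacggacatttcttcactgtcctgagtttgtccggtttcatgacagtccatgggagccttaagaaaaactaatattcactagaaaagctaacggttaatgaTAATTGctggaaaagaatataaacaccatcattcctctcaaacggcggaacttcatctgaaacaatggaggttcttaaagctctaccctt

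The members just inside and outside the limits of the rule differed little. Above the fold limit lay Mymx (8.81 times NGO) and 9230020A06Rik (8.86), and below it 8430423G03Rik (7.77) and Gm5321 (7.58). Above the FGO limit lay Gm13211 (0.504 RPKM) and G630090E17Rik (0.505), and below it Gm10654 (0.491) and Gm9898 (0.452).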

How the data were processed

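The analysis used 4 oocyte RNA-Seq libraries, from 4 stages with no replicate. The authors trimmed reads with Trim Galore 0.2.8 and mapped them to GRCm38 with TopHat2 2.0.9 (per the submitters' processing notes) and deposited RPKM values per gene. Mapping was set to report 1 alignment per read (option -g 1), so a read with several equal matches was placed once. The counting program, annotation and strand setting behind these values are not given in the sources used here. Normalization by total library size leaves differences in RNA content per oocyte out of the values. No column beyond the 4 libraries was present.

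Counts were recovered as whole numbers from RPKM, exon length and a fitted library total. For genes with 1 exon, at least 99.4 % of values came out whole (within 0.02). For 34 of the 102 members the length was the smallest that fits, which can understate counts but leaves RPKM as deposited. The fitted totals (NGO 110595207, GO1 126796745, GO2 241385710, FGO 119629249) may count the mates or spliced parts of a read pair separately, and intervals, which take counts as independent, would then be too narrow.

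Folds of GO2 over GO1 were computed on RPKM + 0.05, and a gene was called at 2-fold, with 95 % intervals for counting error only (Poisson for levels, exact binomial for ratios, Wilson for shares). A ratio against 0 counts is given as a lower bound, computed against 3 counts, and a ratio on 1 or more counts is given with its interval. No test between stages was possible. Annotation came from GENCODE M21 and RefSeq (98 members matched a GENCODE gene, 72 a RefSeq gene and 99 either), promoters from RefSeq (GRCm38.p6), and copies from BLAST+ 2.17.0 on GENCODE transcripts. Python 3.11.15, numpy 2.4.6, pandas 2.3.3, scipy 1.17.1 and matplotlib 3.10.9 were used, and the steps were tested on simulated data.

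The members and lists were chosen with earlier results of these data known. Named members are those highest in FGOs, with the largest differences of FGO over NGO and the largest or smallest of GO2 over GO1, highest in GO2 relative to FGOs, next to a limit of the rule, neighbouring each other, carrying a protein-coding symbol today or sharing a promoter stretch. Others named as family members, overlaps or late-stage loci were chosen after their values were seen. Alternatives were other limits, pseudocounts, count minimums, a trimmed mean scaling, distances and motif or CpG limits.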

Additional observations from a re-analysis of the deposited data

How the results depend on the processing

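No paired analysis was possible because each stage has 1 library, and for the same reason no replicate could be left out. There were 40 recomputed values, 10 of them from alternatives added after seeing the data (members with near-identical copies or on the X chromosome left out). Only the median log2 difference of GO2 over GO1 could have turned its direction, and it stayed positive in every alternative. Counts and percents could not turn. Of the 40, 34 kept their value within 1.5 times the count or within the binomial interval of the median. The rest moved. With FGO at least 16 times NGO, 64 members remained, all of them in the list of 102. With a pseudocount of 0.5, 16 members were 2-fold higher in GO2 and the median log2 difference was 0.58, since 0.5 exceeds most GO1 levels. With a 4-fold limit, 6 were called. Within 500 kb, 15 members had a neighbour. Without members for which a near-identical copy was found, 3 of 33 promoters shared a stretch. A trimmed mean of log ratios shifted GO2 by 0.04 against GO1 (log2) and left 46 members past 2-fold, beside 2.49 % of all listed genes. Against NGOs it shifted GO1 by -0.17, GO2 by -0.16 and FGOs by -0.07, which added 2 loci to the list and lost none.

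Depth limits the weakest members: 19 had fewer than 3 counts in NGOs and 4 in GO1, so their ratios are lower bounds or have wide intervals. A GO2 to GO1 ratio of 1 could not be told apart from the observed one in at least 13 members.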

Other observations

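Of the 3 members that could not be matched to the reference tables, Gm6902 (chr7:20724919-20725824) was at 0.0998, 0.801, 2.10 and 3.88 RPKM from NGO to FGO, and Gm4567 (chr7:23272867-23275243) at 0.0271, 0.201, 0.549 and 0.814 RPKM. Both lie on chromosome 7, as does the member Gm6882 (0.0576, 0.226, 0.396 and 0.648 RPKM), a protein-coding locus with 15 near-identical copies. Of these copies, 4 are listed genes outside the member list, and they stood at 0.0277 RPKM or less in FGOs. Gm10662 and Gm5891 among them are 99.6 % identical to a Gm6882 transcript over 2333 bases, so the placement of reads between these loci is uncertain. On chromosome 14, Gm5798 was at 0.0361, 0.257, 0.525 and 0.702 RPKM among 18 copies. It is 99.8 % identical to Gm8011 over 1751 bases, so reads may be shared there too. A relative there, 1700024B05Rik, was at 1.12, 4.27, 4.94 and 6.69 RPKM, higher than Gm5798 in every library but 5.95 times NGO in FGOs and so outside the rule. Gm7995, another relative, was highest in GO1, at 0.801 RPKM.

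Non-coding members were shorter than protein-coding ones, with median exon lengths of 669 and 1898 bases, at median FGO levels of 1.51 and 1.57 RPKM. The level was higher at every step from NGOs to FGOs in 32 of 35 protein-coding members and in 34 of 56 non-coding ones. This difference was seen after the values were known and was not tested.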
